A study of Mus musculus with 12 samples.

Results

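The genes of 4 families of RNA-binding and splicing proteins were examined for H3K27ac, the acetylation of lysine 27 on histone H3 that marks promoters and enhancers in use, in regenerating liver of Cox10-/- and wild-type mice. A gene was a member when its symbol began with Srsf, Hnrnp, Snrp or Rbm followed by a letter or digit. This rule used names alone and took 66 of 11240 gene names and 199 of 36387 H3K27ac regions: 8 Srsf genes with 28 regions, 19 Hnrnp genes with 56, 9 Snrp genes with 12 and 30 Rbm genes with 103. Of these members, 27 had 1 region, 17 had 2 and 22 had 3 or more. The Rbm symbol is given to proteins with an RNA-binding motif, of which many act outside splicing. Rbm19 is a ribosome biogenesis factor, Rbm7 belongs to a complex that targets RNA to the nuclear exosome, Rbms1 binds RNA and single-stranded DNA, and Rbm3os is an antisense transcript of the Rbm3 gene, so the 30 Rbm genes are described by their symbol and not as splicing factors. Srsf1, Snrpn, Rbm3 and Rbm38 were not analysed here.

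All mice carried a floxed Cox10 allele, and virus was injected behind the eye. In the Cox10-/- group the virus (AAV8, a serotype that reaches mostly hepatocytes) carried Cre recombinase, and in the wild-type group it carried GFP, so the wild-type mice also had the floxed allele and a virus. Partial hepatectomy removing 70% of the liver followed after 4 weeks, and liver was collected on day 2 of regeneration. Each group had 3 H3K27ac libraries of whole liver and 3 input libraries, and the inputs were not used here. The labels do not state that the numbered libraries came from separate animals, so p-values measure the spread between libraries, which may be technical. Pairs of libraries of a group differed by little more than read sampling. Their chi-square per degree of freedom lay between 1.06 and 1.11 in Cox10-/- and between 1.16 and 1.19 in wild type.

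Cox10 makes heme A for cytochrome c oxidase, the last enzyme of the respiratory chain. Splicing is carried out by small nuclear ribonucleoproteins (snRNPs). In most of them a ring of Sm proteins, encoded by several Snrp genes, sits on the uridine-rich small nuclear RNA. SR proteins, encoded by Srsf genes, bind exons through RNA recognition motifs and recruit the splicing machinery through a serine- and arginine-rich domain. The hnRNP proteins coat nascent transcripts, often repress exons, and also act in export, stability and translation. These genes are broadly expressed and most have promoters rich in CpG. Srsf5 was also described early as a gene induced in regenerating rat liver.

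Values are normalised reads per region as deposited, in which the whole reads of a library had been divided by its size factor. Size factors lay between 1.18 and 1.32 in the Cox10-/- libraries and between 0.730 and 0.782 in the wild-type libraries, and reads in regions lay between 3282878 and 3385453 in Cox10-/- and between 3897454 and 4187377 in wild type. Mean reads in regions were 0.816 times as many in Cox10-/- as in wild type, and after division by the size factors 0.496 times as many. Changes were also computed after shifting each library to the same median region (the centred scale), which adds 1.05 to every log2 fold change. The 1 region named for Cox10 lies in intron 5 of the gene. It held 60.3, 46.0 and 65.9 normalised reads in Cox10-/- and 14.6, 17.8 and 12.8 in wild type, higher in all 3 Cox10-/- libraries. This level says nothing of whether the floxed exon was lost. Summed over hepatocyte marker genes, of which 5 of 5 had a region, H3K27ac lay between 3482 and 3969 normalised reads in Cox10-/- and between 11415 and 11965 in wild type. Over macrophage markers, of which 3 of 7 had a region, it lay between 2129 and 2451 in Cox10-/- and between 3262 and 3442 in wild type. Of their 28 regions 17 were called lower and 6 higher, where 87.2% of all regions were called lower and 4.46% higher. At the main promoter regions of the macrophage markers alone the sum lay between 408 and 455 in Cox10-/- and between 366 and 404 in wild type. These promoters moved in opposite directions. Cd14 was called higher (log2 fold change 1.15), Cx3cr1 lower (-1.23) and 1 was not called. Adgre1, Clec4f, Csf1r and Vsig4 were without a region. Endothelial markers (2 of 6 with a region) lay between 312 and 388 in Cox10-/- and between 521 and 588 in wild type, and biliary markers (2 of 5) between 82.6 and 97.7 in Cox10-/- and between 97.2 and 118 in wild type. Stellate markers (1 of 6 with a region) lay between 31.8 and 49.2 in Cox10-/- and between 66.5 and 105 in wild type. Blood markers (1 of 5) lay between 31.1 and 36.3 in Cox10-/- and between 121 and 169 in wild type. In whole liver, fewer cells of a type and less acetylation per cell cannot be told apart, and the part of cell composition in the values below was not tested.

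The 100 bases before the start site are shown for selected promoters. Srsf4 and Snrpc had the deepest falls among SR and snRNP main promoter regions. Srsf5, Snrpf, Hnrnpab and Hnrnpf fell little. Srsf7 fell least of the Srsf promoters, with a log2 fold change of -0.49 against -0.57 for Srsf5, and is not shown. The 2 start sites of Rbms1 are shown because their regions moved unequally. Sequences are from RefSeq on GRCm38.p6, written 5′ to 3′ on the strand of the gene, and capitals mark CCAAT, the motif of the NF-Y factor, and CCGGAAG, a motif of ETS factors, on either strand (CTTCCGG is CCGGAAG on the other strand).
Srsf4, chr4:131873537-131873636, plus strand: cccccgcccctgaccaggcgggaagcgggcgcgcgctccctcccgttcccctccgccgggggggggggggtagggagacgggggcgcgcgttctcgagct
Snrpc, chr17:27839987-27840086, plus strand: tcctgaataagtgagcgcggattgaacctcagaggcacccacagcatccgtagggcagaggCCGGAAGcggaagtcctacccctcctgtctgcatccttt
Srsf5, chr12:80945399-80945498, plus strand: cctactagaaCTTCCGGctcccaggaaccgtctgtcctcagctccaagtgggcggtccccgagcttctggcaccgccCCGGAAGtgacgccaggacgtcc
Snrpf, chr10:93589659-93589758, minus strand: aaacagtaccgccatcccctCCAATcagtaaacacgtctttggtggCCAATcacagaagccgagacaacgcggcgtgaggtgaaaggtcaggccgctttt
Hnrnpab, chr11:51606882-51606981, minus strand: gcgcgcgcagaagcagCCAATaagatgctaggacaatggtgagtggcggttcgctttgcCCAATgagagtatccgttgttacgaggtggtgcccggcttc
Hnrnpf, chr6:117906682-117906781, plus strand: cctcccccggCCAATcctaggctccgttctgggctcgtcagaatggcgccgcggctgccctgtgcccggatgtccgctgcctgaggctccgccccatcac
Rbms1 upstream start, chr2:60963205-60963304, minus strand: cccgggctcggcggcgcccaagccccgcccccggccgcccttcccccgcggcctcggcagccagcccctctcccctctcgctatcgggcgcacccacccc
Rbms1 downstream start, chr2:60881439-60881538, minus strand: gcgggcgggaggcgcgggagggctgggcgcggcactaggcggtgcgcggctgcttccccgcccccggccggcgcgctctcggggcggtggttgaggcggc
Within these 100 bases Srsf5 holds CCGGAAG at -90 and -23 and Snrpc at -39, counted from the start site. Snrpf holds CCAAT at -80 and -54, Hnrnpab at -84 and -41, and Hnrnpf at -90. Neither motif occurs in the shown bases of Srsf4 or of either Rbms1 start, which are 81%, 83% and 84% G or C.

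H3K27ac was lower in Cox10-/- liver at nearly every promoter of these genes, and by a similar amount. Of 65 members with a region within 1 kb of a start site (Rbm20 has none), the region of highest mean signal fell at 64, rose at 0 and was not called at 1, Rbm19 (limma, Benjamini-Hochberg adjusted p under 0.05 over all regions). The same fall was the rule across the genome: 93.8% of 9663 promoter genes were lower and 0.807% higher, so the count of members is close to the background. With the deposited size factors, 0 member promoters were higher at an unadjusted p under 0.05 with limma, and 0 at an adjusted p under 0.05 with edgeR or DESeq2. The median log2 fold change was -0.80 for the members, a 1.74-fold lower level, and -0.82 for all promoter genes. The members were spread less widely, with an SD of 0.22 against 0.53 over all promoter genes, and 53 of 65 lay within 0.3 of their own median. The Cox10-/- and wild-type libraries did not overlap at 64 of 65 member promoters, against 93.9% of all promoter genes.

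Against the median region, many of these promoters fell less. On the centred scale 39 member promoters were higher, 2 lower (Srsf4 and Snrpc) and 24 not called, where 49.2% of all promoter genes were higher and 15.4% lower. The median centred change was 0.25 for members and 0.23 for all promoter genes. The 4 families had nearly the same median on the deposited scale, at -0.78 for Srsf, -0.80 for Hnrnp, -0.80 for Snrp and -0.80 for Rbm. They differed in how many promoters were higher after centring: 4 of 8 Srsf, 15 of 19 Hnrnp, 3 of 9 Snrp and 17 of 29 Rbm. The median centred changes were close, at 0.28 for Srsf and 0.25 each for Hnrnp, Snrp and Rbm. The counts of calls also depend on precision. Snrpg, at a centred change of 0.27 (SE 0.13), was not called, whereas Hnrnpa2b1, at 0.24 (SE 0.05), was called higher. No test of a difference between families was made. The share of all reads in regions that fell on the 199 member regions was 0.733%, 0.748% and 0.731% in the Cox10-/- libraries and 0.682%, 0.690% and 0.681% in the wild-type libraries. Each Cox10-/- library lay above each wild-type library. Of the 199 member regions 125 lie within 1 kb of a start site, against 15980 of all 36387 regions. Over all regions the median centred change was 0.19 within 1 kb of a start and -0.23 elsewhere. The part of region class in the higher share was not tested. By family, the ratio of the mean share, Cox10-/- over wild type, was 1.10 for Hnrnp, 1.10 for Snrp and 1.10 for Rbm. For Srsf it was 0.967, with shares of 0.100% ± 0.003 in Cox10-/- and 0.104% ± 0.002 in wild type (SD, n = 3 each), and the libraries of the 2 groups overlapped. Summed normalised reads over the 199 member regions were 19733 ± 1355 in Cox10-/- and 36941 ± 571 in wild type (SD, n = 3 each). Of the 103 regions behind the Rbm share, 20 belong to Rbms1, described below, with a median log2 fold change of -0.23. The part of that gene in the Rbm ratio was not tested.

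**Figure D1:**
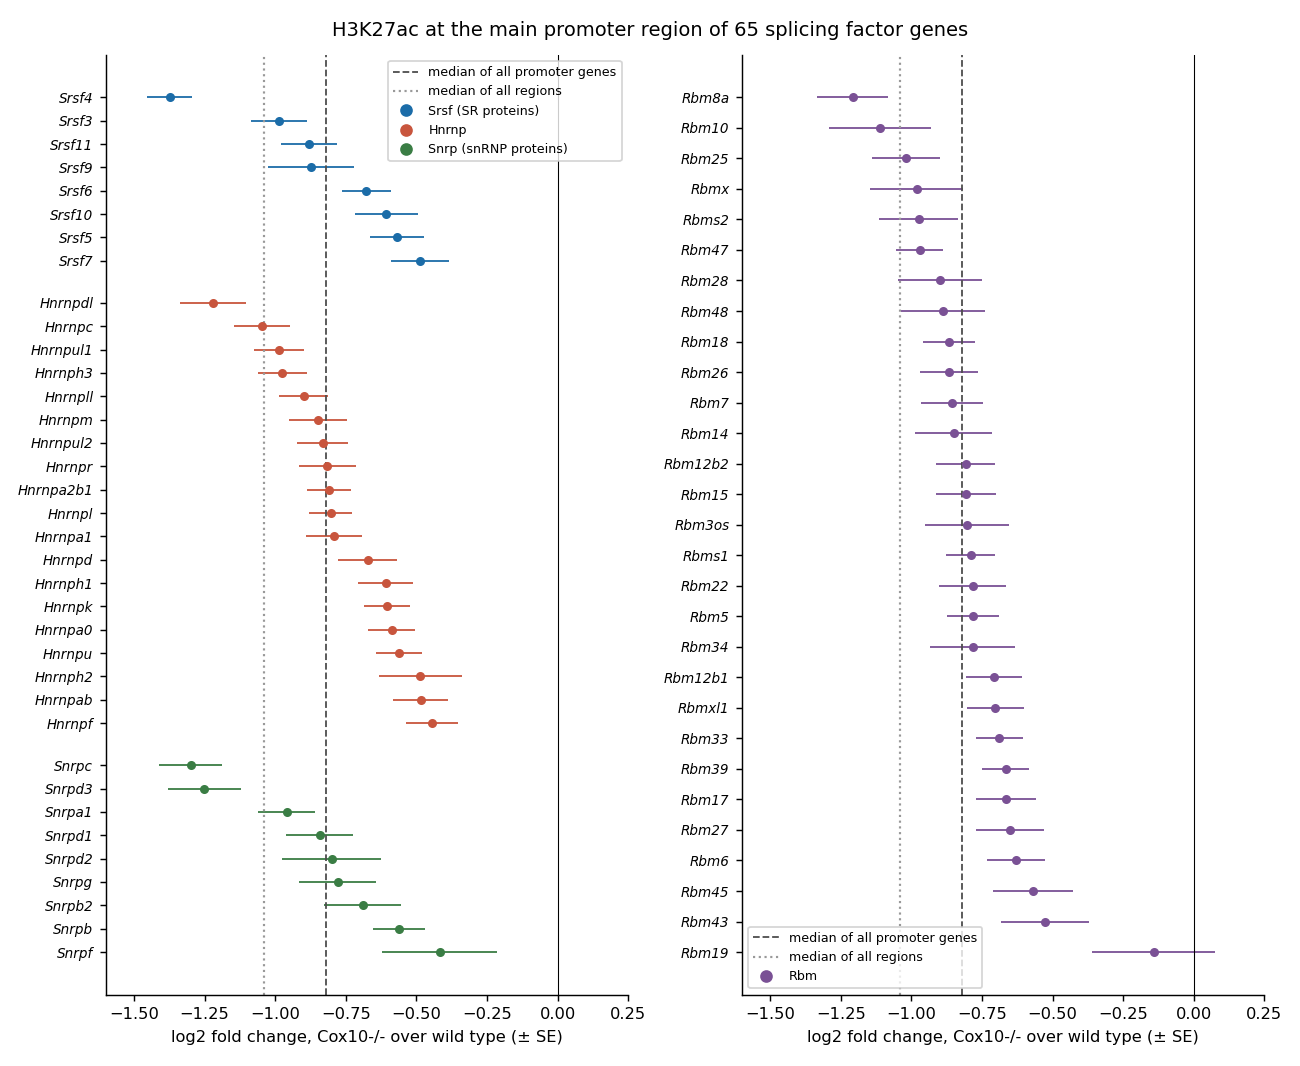
Log2 fold change of H3K27ac, Cox10-/- over wild type, at the main promoter region of 65 genes in 4 families; points are limma estimates and bars are SE. The dashed line marks the median of all promoter genes at -0.82 and the dotted line the median of all regions at -1.04; 64 of 65 points were called lower, from Srsf4 at -1.37 up to Snrpf at -0.42, and Rbm19 at -0.14 was not called.

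Among the SR protein genes all 8 promoters fell, with log2 fold changes between -1.37 (Srsf4) and -0.49 (Srsf7). Srsf4, which encodes one of the longer SR proteins, had 296, 347 and 293 normalised reads at chr4:131873629-131875604 (mm10) in Cox10-/- and 862, 782 and 782 in wild type. Every Cox10-/- library was well below every wild-type library, and its log2 fold change of -1.37 (SE 0.08, limma adjusted p = 1.48e-40), 2.59-fold lower, was the deepest of the 65 member promoters. It was also 1 of the 2 called lower on the centred scale, with a centred log2 fold change of -0.32 (limma adjusted p = 1.88e-06).

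Srsf3, the smallest SR protein and one that also acts in mRNA export, had 164, 174 and 153 normalised reads in Cox10-/- and 318, 316 and 341 in wild type. The groups were far apart, with a log2 fold change of -0.99 (SE 0.10), about that of the median region. At Srsf11 the log2 fold change was -0.88 (SE 0.10), at Srsf9 -0.87 (SE 0.15) and at Srsf6 -0.68 (SE 0.09). Srsf5 fell less, and its promoter held 238, 217 and 223 normalised reads in Cox10-/- and 354, 333 and 321 in wild type. The groups did not overlap, but the change was smaller, a log2 fold change of -0.57 (SE 0.09, limma adjusted p = 1.31e-08). At Srsf10, a splicing repressor when dephosphorylated, the log2 fold change was -0.61 (SE 0.11). Srsf7 had 197, 194 and 181 normalised reads in Cox10-/- and 299, 277 and 231 in wild type. Its wild-type libraries were more spread out than its Cox10-/- libraries and still lay above all of them, a log2 fold change of -0.49 (SE 0.10). Srsf5, Srsf7 and Srsf10 were each called higher on the centred scale, as was Srsf6.

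**Figure D2:**
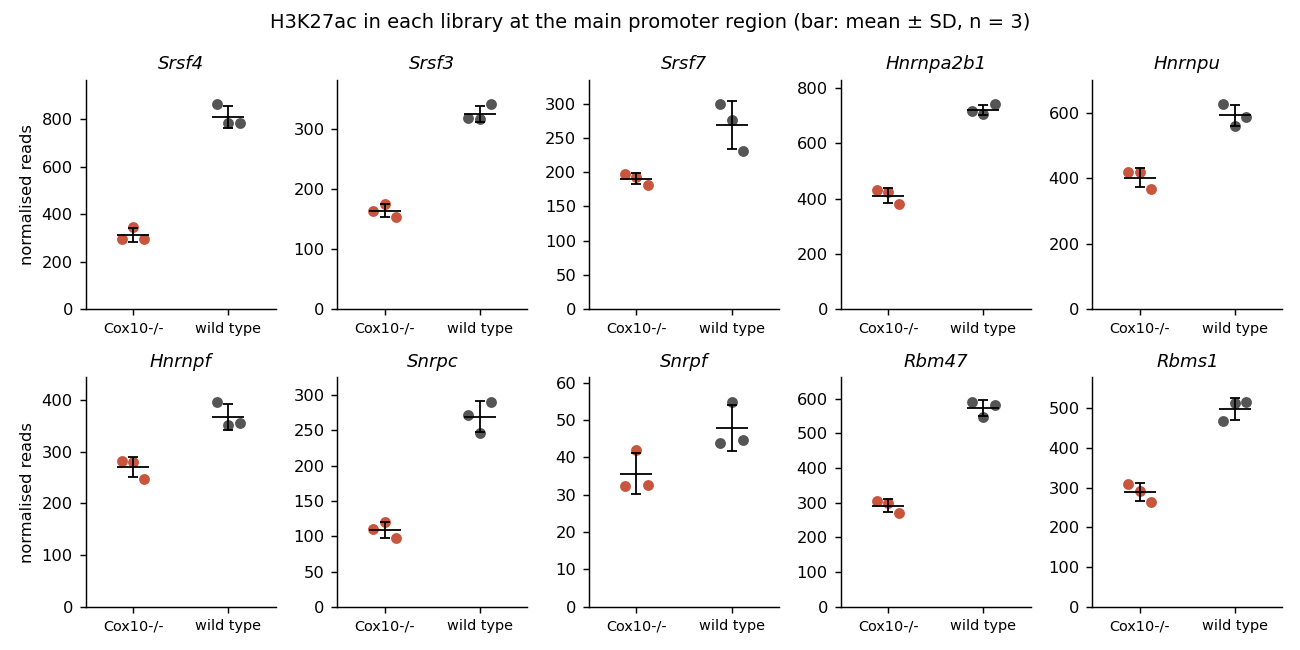
Normalised reads in each H3K27ac library at the main promoter region of 10 named genes, Cox10-/- left and wild type right; points are libraries, the bar is the mean and the error bar the SD (n = 3). In all 10 panels every Cox10-/- point lies below every wild-type point; the gap is widest for Srsf4, with means of 312 in Cox10-/- and 809 in wild type, and narrowest for Snrpf, with 35.6 and 47.8.

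All 19 Hnrnp promoters fell. The log2 fold change was deepest at Hnrnpdl, related to the mRNA decay factor Hnrnpd, with -1.22 (SE 0.12), at Hnrnpc, which binds uridine tracts and keeps cryptic exons out, with -1.05 (SE 0.10), and at Hnrnpul1 with -0.99 (SE 0.09). None of these 3 was called on the centred scale. Hnrnpa2b1, an exon repressor that also sorts RNA in the cytoplasm, had 433, 422 and 379 normalised reads in Cox10-/- and 716, 705 and 741 in wild type. Wild-type libraries were tightly grouped and all above the Cox10-/- libraries, with a log2 fold change of -0.81 (SE 0.08). Hnrnpa1, its close relative, had 171, 176 and 178 normalised reads in Cox10-/- and 301, 299.9 and 311 in wild type. The groups were as clearly apart as for Hnrnpa2b1, with a log2 fold change of -0.79 (SE 0.10). Both were called higher after centring. The 9 Hnrnp promoters not named one by one here lay between -0.97 (Hnrnph3) and -0.59 (Hnrnpa0) on the log2 scale.

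The smallest falls were at Hnrnpf, Hnrnpab and Hnrnph2. Hnrnpf, a binder of guanine runs, had 282, 281 and 248 normalised reads at chr6:117906795-117907695 (mm10) in Cox10-/- and 396, 352 and 355 in wild type. The groups were close but did not overlap, with a log2 fold change of -0.44 (SE 0.09, limma adjusted p = 3.23e-06). Its paralog Hnrnph2 had 81.6, 60.5 and 62.1 normalised reads in Cox10-/- and 102, 95.9 and 86.9 in wild type. The highest Cox10-/- library came within a few reads of the lowest wild-type library, and the log2 fold change was -0.49 (SE 0.15). Hnrnpab had 207, 221 and 214 normalised reads in Cox10-/- and 347, 281 and 277 in wild type. In wild type 1 library stood above the other two, and the log2 fold change was -0.48 (SE 0.10). Hnrnpu, a scaffold protein of the nucleus, had 417, 417 and 367 normalised reads in Cox10-/- and 625, 560.2 and 588 in wild type. The groups did not overlap, with a log2 fold change of -0.56 (SE 0.08). Hnrnpk, which binds cytidine-rich RNA through KH domains, fell by a like amount, a log2 fold change of -0.60 (SE 0.08). These 5 were all called higher on the centred scale, with centred log2 fold changes between 0.45 and 0.61.

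All 9 Snrp promoters fell, across nearly the whole range of the members. Snrpc, a protein of the U1 snRNP that helps it recognise the donor splice site, had 109.6, 119 and 97.7 normalised reads at chr17:27839162-27839938 (mm10) in Cox10-/- and 271, 247 and 290.1 in wild type. The groups were far apart, and the log2 fold change was -1.30 (SE 0.11, limma adjusted p = 3.74e-24), 2.46-fold lower. Its centred log2 fold change was -0.25 (limma adjusted p = 0.0187), a call that was lost without Cox10-/- replicate 1 (adjusted p = 0.0651), without Cox10-/- replicate 3 (0.0529), without wild-type replicate 3 (0.12) and with DESeq2 (0.0853). This main region of Snrpc ends 149 bp before the RefSeq start site. The other Snrpc region, 98 bp from that start site, had a log2 fold change of -0.85, near the median of all promoter genes.

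The genes of the Sm ring proteins fell by unequal amounts. Snrpd3 had 76.5, 72.6 and 64.4 normalised reads in Cox10-/- and 164, 188 and 161 in wild type. The groups were far apart, with a log2 fold change of -1.25 (SE 0.13). Snrpd1, Snrpd2 and Snrpg lay near the median of all promoters, with log2 fold changes of -0.84, -0.80 and -0.78. Snrpb had 294, 245 and 236 normalised reads in Cox10-/- and 339, 393 and 412 in wild type. The groups did not overlap, with a log2 fold change of -0.56 (SE 0.09). Snrpf had the smallest fall, with 32.3, 42.0 and 32.6 normalised reads in Cox10-/- and 43.9, 54.8 and 44.7 in wild type. The groups were nearly touching, with a log2 fold change of -0.42 (SE 0.20, limma adjusted p = 0.0444), and the call was lost without Cox10-/- replicate 1 (adjusted p = 0.122), without Cox10-/- replicate 3 (0.115), without wild-type replicate 2 (0.177) and with DESeq2 (0.135). Of the U2 snRNP proteins, Snrpa1 had a log2 fold change of -0.96 (SE 0.10) and Snrpb2 of -0.69 (SE 0.14).

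Of 29 Rbm promoters 28 fell. Rbm8a, a core protein of the exon junction complex, had 70.5, 86.4 and 77.3 normalised reads in Cox10-/- and 193, 185 and 166 in wild type. The groups were far apart, with the deepest log2 fold change of the family, -1.21 (SE 0.13). Rbm25, a U1-associated factor, had 108, 95.2 and 90.2 in Cox10-/- and 223, 189 and 185 in wild type, a log2 fold change of -1.02 (SE 0.12). The annotation places this Rbm25 region within 1 kb of a start, but it lies 2579 bp from the RefSeq start listed for the gene. At Rbm10, a regulator of exon inclusion, the log2 fold change was -1.11 (SE 0.18). The related genes Rbm5 and Rbm6 were nearer the middle, with log2 fold changes of -0.78 (SE 0.09) and -0.63 (SE 0.10). Rbm39 and Rbm17, which take part in recognition of the acceptor splice site, both had a log2 fold change of -0.67 (SE 0.08 and 0.11). Rbm45 and Rbm43 fell least among those called, with log2 fold changes of -0.57 (SE 0.14) and -0.53 (SE 0.16). Rbm19 had 28.9, 37.9 and 38.6 normalised reads in Cox10-/- and 33.3, 32.9 and 52.4 in wild type. The groups overlapped, and the log2 fold change of -0.14 (SE 0.22, limma adjusted p = 0.528) was not called. On the centred scale the Rbm19 promoter was called higher, at 0.91 (limma adjusted p = 0.000141). Its region is the lowest of the 65 per kilobase in wild type. Apart from Rbm47 and Rbms1, described below, the other 17 Rbm promoters had log2 fold changes between -0.98 (Rbmx) and -0.65 (Rbm27). Rbmx and Rbmxl1, Rbm12b1 and Rbm12b2, and Hnrnph1 and Hnrnph2 are close copies of each other, so reads within their coding parts could be split between them.

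Levels per kilobase of region were higher at these promoters than at most. In Cox10-/- the median was 181 normalised reads per kb for the members and 153 for all promoter genes, and in wild type 325 for the members and 278 for all promoter genes. The median member ranked at percentile 75.5 of all promoter genes in wild type, with family medians of 95.3 for Hnrnp, 67.2 for Rbm, 59.9 for Srsf and 54.8 for Snrp. Hnrnpu was the highest, at 401 per kb in Cox10-/- and 592 in wild type, followed in wild type by Srsf5 at 363 in Cox10-/- and 539 in wild type. Rbm10 was the lowest in Cox10-/-, at 96.3 per kb there and 213 in wild type, and Rbm19 the lowest in wild type, at 148 in Cox10-/- and 167 in wild type. Promoters of like level were compared by splitting all promoter genes into 5 classes of equal size by mean signal. In the highest class 22 members had a median log2 fold change of -0.79, against -0.86 for all 1933 genes of the class, and in the next 18 members were at -0.81, against -0.81. In the middle class 8 members were at -0.93, against -0.80. In the next lower class 11 were at -0.80, against -0.80, and in the lowest 6 were at -0.66, against -0.83.

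**Figure D3:**
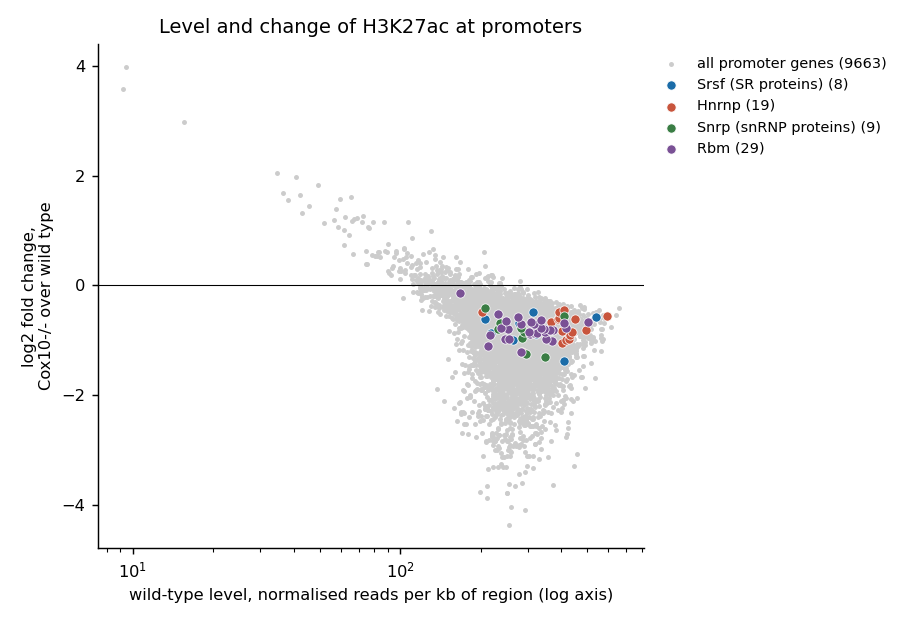
Log2 fold change of H3K27ac, Cox10-/- over wild type, against the wild-type level in normalised reads per kb of region (log axis), for 1 promoter region per gene; grey points are all 9663 promoter genes and coloured points the 65 members. The members lie in the dense band near -0.80, and the Hnrnp genes sit to the right, with a median percentile of 95.3; both axes use the same wild-type values.

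Away from promoters most member regions fell by more than the promoters did. Of 74 regions not within 1 kb of a start site, 65 were lower and 1 higher, where 83.2% of 20407 such regions were lower and 6.96% higher. Their median log2 fold change was -1.23, against -1.28 for all such regions. On the centred scale 27 were lower and 15 higher, where 43.1% of all such regions were lower and 26.9% higher. Rbm47 and Rbms1 held 46 of the 74. The other 28 regions, in 14 genes, were all called lower with a median of -1.65; setting the 2 genes aside was chosen after their values were seen. By class, 10 distal intergenic regions had a median log2 fold change of -1.50 (-1.23 over all such regions), 19 regions between 1 and 3 kb from a start had -1.46 (-1.34), and 42 intronic regions had -0.95 (-1.28). Of the 42 intronic regions, 24 belong to Rbm47, with a median of -1.13, and 14 to Rbms1, with a median of -0.23, so those 2 genes make up most of this class. Regions away from promoters are named by the closest gene and may act on another.

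H3K27ac at Srsf4 fell along the whole length of the gene. Its 7 regions, up to 25.1 kb past the start, had log2 fold changes between -2.21 and -1.28, and all 7 were lower on the centred scale as well, which held for no other of the 22 members with 3 or more regions. Summed over the 7 regions, H3K27ac was 692, 731 and 658 normalised reads in the Cox10-/- libraries and 1956, 1986 and 1967 in the wild-type libraries, 64.8% lower. The region 14.6 kb past the start moved most: it held 29.7, 20.2 and 25.8 normalised reads in Cox10-/- and 117, 115 and 124 in wild type. The region at 25.1 kb, in intron 4, held 135, 128 and 117 in Cox10-/- and 383, 426 and 404 in wild type. Both regions stood clear of any overlap, and at 25.1 kb the log2 fold change was -1.67 (SE 0.10).

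At Srsf5 the main promoter region fell less than the gene's other 6 regions. Its 4 distal intergenic regions lie 14.3 to 16.8 kb before the start and had log2 fold changes between -2.09 and -1.45, against -0.57 at the main promoter region. Of the other 2 regions within 1 kb of a start, 1 had a log2 fold change of -0.87 and 1, centred 1.15 kb past the start, had -1.46, about that of the nearest distal region. The farthest, chr12:80928446-80928864 (mm10), held 27.2, 33.9 and 22.0 normalised reads in Cox10-/- and 119.7, 125 and 114 in wild type, a log2 fold change of -2.09 (SE 0.17, limma adjusted p = 1.82e-25), 4.25-fold lower. Relative to the promoter of the same library, its log2 level was -3.00 ± 0.33 in Cox10-/- and -1.48 ± 0.07 in wild type (SD, n = 3 each), a description of regions chosen with their values known. The nearest of the 4, chr12:80931031-80931340 (mm10), had a log2 fold change of -1.45 (SE 0.19).

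Hnrnpu and Hnrnpa0 showed the same shape over shorter distances. At Hnrnpu the main region, 0.58 kb past the start, had a log2 fold change of -0.56, and the region at 7.19 kb, which the annotation also places within 1 kb of a start, had 23.8, 15.3 and 14.4 normalised reads in Cox10-/- and 71.8, 79.4 and 71.6 in wild type. The Cox10-/- libraries were all far below the wild-type libraries there, with a log2 fold change of -2.03 (SE 0.22). At Hnrnpa0, whose protein binds AU-rich messages, the 3 regions within 1 kb of the start had log2 fold changes between -0.66 and -0.58. The Hnrnpa0 region at 1.83 kb, in the class between 1 and 3 kb from a start, fell most, with a log2 fold change of -1.87 (SE 0.14). The 2 intergenic regions past the gene had log2 fold changes of -1.85 and -1.64. The nearer of these 2, chr13:58123692-58124434 (mm10), held 52.7, 47.6 and 38.6 normalised reads in Cox10-/- and 189, 155 and 162 in wild type. Among intergenic and intronic regions of Hnrnp genes the smallest fall was near Hnrnpll, a log2 fold change of -0.74 (SE 0.21).

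Rbm19 had the widest gap between promoter and other regions of the 38 members with 2 or more regions. Its promoter was not called, whereas an intron 21 region, chr5:120165189-120165659 (mm10), held 20.4, 29.9 and 24.2 normalised reads in Cox10-/- and 117, 137 and 119 in wild type. The groups were far apart, with a log2 fold change of -2.29 (SE 0.17, limma adjusted p = 1.63e-28), 4.89-fold lower. A neighbouring intron 21 region had a log2 fold change of -2.10 (SE 0.21). A further region inside the gene, beside the start of the opposite-strand gene Gm10390, held 7.65, 4.84 and 6.06 normalised reads in Cox10-/- and 54.5, 53.4 and 56.2 in wild type, a log2 fold change of -2.97, the deepest of the 199 member regions. Rbm20, a regulator of titin splicing in heart, had no promoter region here and 2 regions inside the gene. The region over exon 10 held 39.9, 42.0 and 46.2 normalised reads in Cox10-/- and 108, 87.7 and 104 in wild type, a log2 fold change of -1.20 (SE 0.16).

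**Figure D4:**
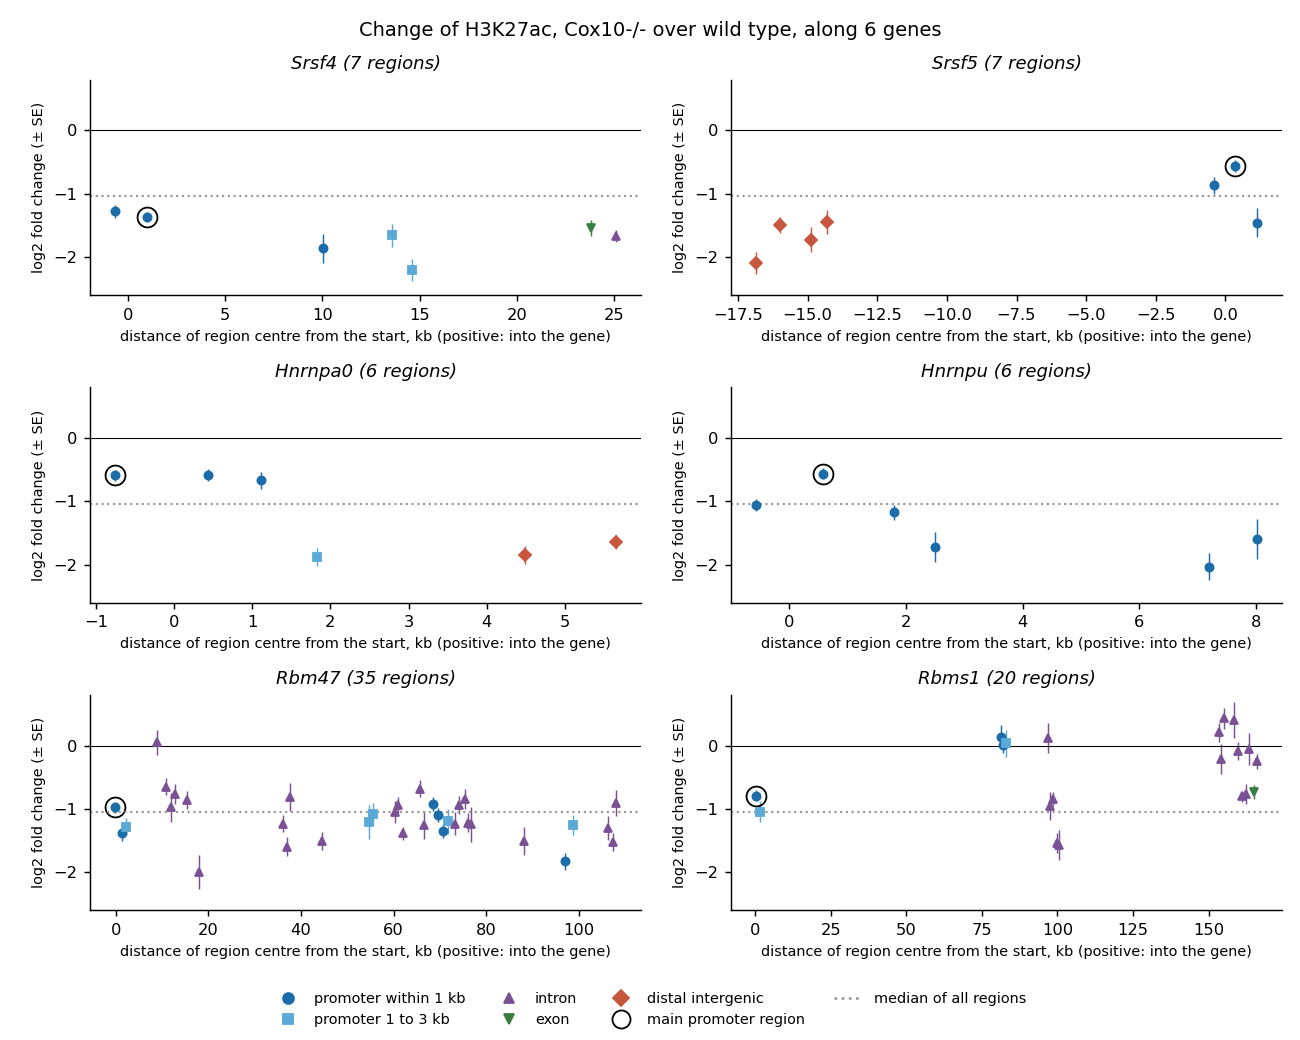
Log2 fold change of H3K27ac, Cox10-/- over wild type, for every region of 6 genes against the distance of its centre from the start in kb (positive is into the gene); bars are SE, symbols give the annotated class, the circle marks the main promoter region and the dotted line the median of all regions at -1.04. Srsf4 lies below the line throughout, Srsf5, Hnrnpa0 and Hnrnpu are highest near the start and lower away from it, Rbm47 scatters around the line over 35 regions, and Rbms1 lies near 0 at its downstream start, with a median of -0.15 over its 10 regions between 153 and 166 kb.

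Rbm47, a cofactor of apolipoprotein B mRNA editing in liver and intestine, had the most regions of any member. Its 35 regions span 109 kb, and 34 were lower and 1 not called, with a median log2 fold change of -1.21. The main promoter region held 304, 300.2 and 271 normalised reads in Cox10-/- and 591, 546 and 582 in wild type, clearly apart, a log2 fold change of -0.97 (SE 0.08). The deepest region, in intron 3 at 17.9 kb, had a log2 fold change of -2.00 (SE 0.26), with 17.0, 12.9 and 9.85 normalised reads in Cox10-/- and 53.2, 32.9 and 93.3 in wild type, where the wild-type libraries were widely spread. In the same intron, at 8.95 kb, 1 region held 52.7, 37.1 and 49.2 normalised reads in Cox10-/- and 35.9, 50.7 and 47.3 in wild type. The groups overlapped there and the log2 fold change was 0.05 (SE 0.19, limma adjusted p = 0.794).

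Rbms1 fell at its upstream start and changed little at many regions farther into the gene. Of its 20 regions over 167 kb, 10 were lower, 1 higher and 9 not called, so 9 of the 11 member regions not called belong to this gene. The median log2 fold change was -0.23, and 14 of the 20 were higher on the centred scale. At the upstream start the main region held 308, 292 and 264 normalised reads in Cox10-/- and 467, 512 and 515 in wild type, a fall like that of other members, a log2 fold change of -0.79 (SE 0.09). At the downstream start the stronger region, chr2:60880867-60881388 (mm10), held 162, 147 and 119 in Cox10-/- and 157, 138 and 128 in wild type. The groups overlapped, with a log2 fold change of 0.01 (SE 0.12, limma adjusted p = 0.934), and the other 2 regions there had log2 fold changes of 0.14 and 0.04, not called. The log2 level of this region relative to the upstream start was -1.02 ± 0.11 in Cox10-/- and -1.82 ± 0.22 in wild type (SD, n = 3 each), chosen after the values were seen and not tested.

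Farther into Rbms1 the regions fell into groups by position. Of 5 regions between 97.0 and 100.4 kb past the upstream start, 4 were lower, with log2 fold changes down to -1.56. Of 10 regions between 153 and 166 kb, 4 were lower, 1 higher and 5 not called, with a median log2 fold change of -0.15. The region that rose, in intron 2 at chr2:60807857-60808262 (mm10), is the 1 member region called higher. It held 82.4, 62.1 and 71.2 normalised reads in Cox10-/- and 47.9, 45.2 and 67.7 in wild type, where the highest wild-type library lay above the lowest Cox10-/- library. The log2 fold change was 0.43 (SE 0.17, limma adjusted p = 0.0121), and it was no longer called without Cox10-/- replicate 1 (adjusted p = 0.0982), without wild-type replicate 1 (0.0506), without wild-type replicate 2 (0.0828) or with DESeq2 (0.0844). Over all regions of the genome 4.46% were called higher. Which cells of the liver carry these Rbms1 regions was not tested.

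Over all 199 regions of the members, 187 were lower, 1 higher and 11 not called, against 87.2% lower over all regions. The groups did not overlap at 187 regions, against 90.9% of all regions. The median log2 fold change was -0.91 for members and -1.04 for all regions. On the centred scale 44 member regions were lower and 70 higher, where 32.4% of all regions were lower and 33.6% higher. Within a gene, the main promoter region fell less than the median of the gene's other regions in 27 of 38 members with 2 or more regions (71.1%), against 3420 of 5667 genes (60.3%). In members and all genes alike the main region was chosen by its mean over the libraries of both groups. That choice itself favours regions that fell less. The medians were -0.80 at the main region and -1.13 at the others for members, and -0.87 and -1.08 for all genes. In the other 11 members the main region fell more. The difference was widest at Rbms1 and Snrpc, where the log2 fold changes of their main regions were -0.79 and -1.30, and the median of their other regions was -0.21 and -0.85.

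**Figure D5:**
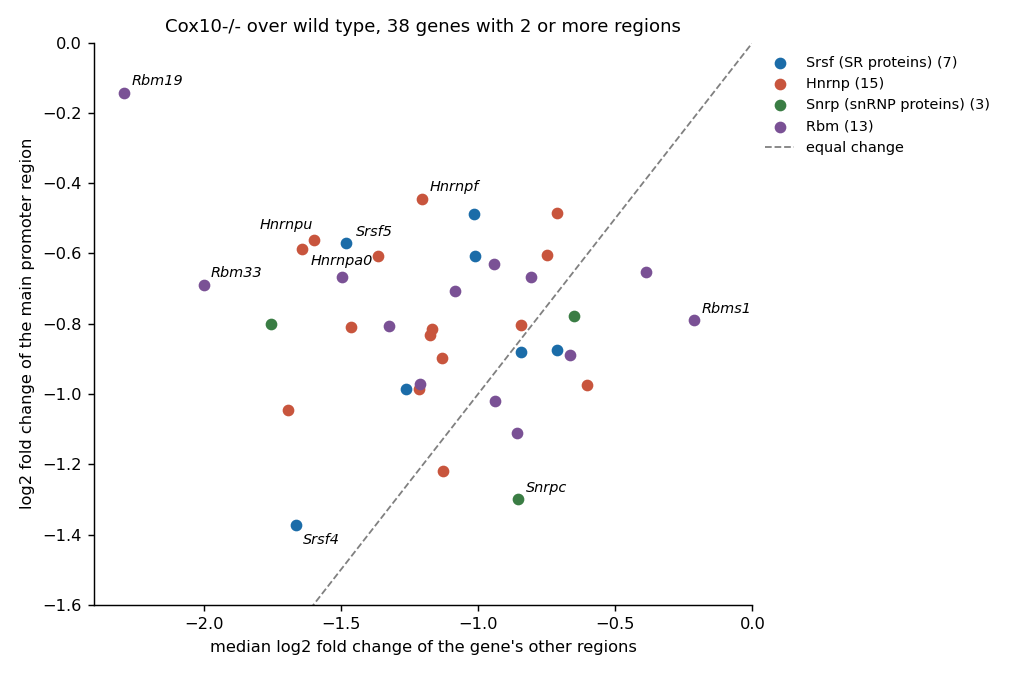
Log2 fold change of the main promoter region against the median log2 fold change of the same gene's other regions, Cox10-/- over wild type, for 38 members with 2 or more regions; each point is a gene, coloured by family, and the dashed line marks equal change. The 27 points above the line fell less at the main promoter, with Rbm19 farthest from it, and 11 lie below it, with Rbms1 and Snrpc the farthest below. The main region was chosen by its mean over the libraries of both groups, which favours regions that fell less.

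Other genes of the splicing pathway also fell. Of 135 genes in 6 lists, 107 had a promoter region, of which 104 were lower, 0 higher and 3 not called, near the 93.8% lower over all promoter genes, with a median log2 fold change of -0.77. On the centred scale 69 of the 107 were higher and 3 lower, where 49.2% of all promoter genes were higher and 15.4% lower. Of 15 other snRNP and LSm proteins all were lower (median -0.74), as were 27 of 27 PRPF and later spliceosome proteins (-0.85) and 14 of 14 SR protein kinases and SR-related proteins (-0.77). Of 16 SF3 and U2AF factors 15 were lower (-0.78), of 11 spliceosomal helicases 10 (-0.70) and of 24 other regulators of alternative splicing 23 (-0.79). Txnl4a, a protein of the U5 snRNP, stood apart with 20.4, 17.8 and 20.5 normalised reads in Cox10-/- and 118, 94.5 and 124 in wild type. Every wild-type library lay several-fold above every Cox10-/- library, with a log2 fold change of -2.46 (SE 0.19). Log2 fold changes were also deep at other genes. Khdrbs3, a regulator of alternative exons, had -1.71 (SE 0.22), Esrp2, an epithelial splicing factor of adult hepatocytes, -1.25 (SE 0.09), and U2af1, which reads the acceptor site, -1.18 (SE 0.09). Lsm6, of the ring on the U6 snRNA, had a log2 fold change of -1.30 (SE 0.17) and Luc7l2, a U1-associated protein, of -1.10 (SE 0.09). Ddx5, an RNA helicase, lay near the median of all promoters with a log2 fold change of -0.85 (SE 0.09). Smaller falls were at Snrnp35 (-0.57, SE 0.08), Ddx17 (-0.58, SE 0.09), Tra2a (-0.59, SE 0.10), Prpf4b (-0.60, SE 0.10) and Sf3b3 (-0.68, SE 0.09).

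Promoter sequence was described for the 55 members whose main region lies within 500 bp of a RefSeq start, from 250 bases before to 50 after it, beside 6717 promoter genes matched in the same way. Both had a median of 62% G or C, and the ratio of observed to expected CpG was 0.902 for members and 0.805 for the genes of the series. CCAAT, on either strand, was in 23 members (41.8%) and in 38.3% of the genes. CCGGAAG was in 14 members (25.5%) and in 20.7%, CACGTG, the E-box, in 6 (10.9%) and in 10.6%, and TATAAA in 4 (7.27%) and in 6.58%. TGACGTCA, the cyclic AMP response element, was in 1 member (1.82%) and in 3.51%, the YY1 motif in 1 (1.82%) and in 1.94%, and the palindromic NRF1 motif in 0 and in 2.52%, each searched by exact letters on both strands. Another gene starts within 500 bp of the main region at 16 of 65 members (24.6%), against 23.7% of all promoter genes. At these, among them Rbm10 beside Ndufb11, Snrpd3 beside Gucd1, Hnrnpk beside Rmi1, Srsf11 beside Lrrc40 and Hnrnph2 beside Gla, acetylation at one start cannot be told apart from that at the other.

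In the authors' deposited table of fold changes and adjusted p-values, 185 member regions were lower, 0 higher and 14 not called, where that table had 84.8% of all regions lower and 3.58% higher. The call differed from that of limma at 3 of 199 regions.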

How the data were processed

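The authors deposited 1 table with a normalised read count per region (a signal) for each of 6 H3K27ac libraries, with log2 fold changes, p-values, a test score (not used here) and region annotation. Every value (100%) came out as whole reads, within 0.01, times a constant of its library. Per the labels' protocols the chromatin was mixed with a spike-in; the origin of the size factors is not given in the sources. The submitters' processing notes name deepTools 3.5.0, MACS, BWA 0.7.5 and build mm10, with no roles. Of 36446 rows, 59 repeats were dropped, and chromosome 16 was not analysed here. Coordinates are as in the table, whose counting base is not stated.

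All 36387 regions were fitted with limma 3.58.1 (R 4.3.3) on log2(value + 1), Cox10-/- over wild type, 3 libraries each, with a mean-variance trend, no filter and no block. The threshold was a Benjamini-Hochberg adjusted p under 0.05. A pseudocount understates changes of low regions. The main promoter region of a gene is its region of highest mean within 1 kb of a start. Named genes are the 3 deepest and 3 highest promoters per family with a mean of 20 or more, the extreme regions away from promoters, a short list of well-known members and 1 gene per direction from each splicing list. Other genes, and regions of Srsf4, Srsf5, Hnrnpu, Hnrnpa0, Rbm19, Rbm47 and Rbms1, were chosen after their values were seen. The members and lists were chosen with earlier results of these data known. Alternatives were edgeR 4.0.16 and DESeq2 1.42.0 on recovered reads, other scalings, pseudocounts of 0.5 and 5, a filter, a threshold of 0.01, a replicate block and leaving out each library. The labels give no batch. One gene that the rule names is not reported here. The fit was tested on simulated data.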

Additional observations from a re-analysis of the deposited data

How the results depend on the processing

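On the reads recovered from the deposited values, edgeR called 187 member regions lower and 1 higher, and DESeq2 185 and 0, with the deposited size factors. Other scalings changed the calls. With DESeq2's own size factors 35 member regions were lower and 55 higher, with edgeR and TMM scaling 47 and 70, and centred on the median region 44 and 70. At member promoters those counts were 1 and 30, 2 and 39, and 2 and 39. Centring on the median promoter instead gave 60 lower and 42 higher regions, and 5 lower and 24 higher promoters. These scalings each make the typical region of the libraries equal, and the deposited size factors do not. The count of higher regions was 0 at an adjusted p under 0.01, with DESeq2 and without Rbm47 and Rbms1, a choice made after seeing the data. Leaving out 1 library gave 0 to 1 higher and 185 to 187 lower regions, and 1 to 2 lower and 32 to 39 higher promoters on the centred scale. Promoters lower on the centred scale numbered 1 at an adjusted p under 0.01, 1 with DESeq2 and 6 with the mean over all regions of a gene.

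Centring reversed the sign of 24 named regions: Hnrnpa1 (0.26), Hnrnpa2b1 (0.24), Hnrnpab (0.57), Hnrnpc (0.0065), Hnrnpf (0.61), Hnrnph2 (0.57), Hnrnpk (0.45), the region near Hnrnpll (0.31), Hnrnpu (0.49), Hnrnpul1 (0.066), Rbm19 (0.91), Rbm25 (0.034), Rbm43 (0.52), Rbm45 (0.48), Rbm47 (0.081), Snrpa1 (0.093), Snrpb (0.49), Snrpb2 (0.36), Snrpf (0.63), Srsf10 (0.45), Srsf11 (0.17), Srsf3 (0.066), Srsf5 (0.48) and Srsf7 (0.56), each as a log2 fold change. On the deposited scale, where the Rbm19 promoter was not called, its change with 1 library left out ranged between -0.25 (without wild-type replicate 2) and 0.074 (without wild-type replicate 3).

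A fit with the replicate number as a block gave 187 lower and 1 higher regions, 64 lower and 0 higher promoters, and on the centred scale 44 and 70 regions and 2 and 39 promoters. Deviations of same-numbered libraries correlated at -0.000917, 0.00737 and 0.0054. Most of the spread within a group was read sampling, so these values cannot show whether the numbers pair the samples. With 3 libraries a group and regions such as those of Snrpf and Rbm19 at low read counts, small changes are not detectable at this depth.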
